A study of Bos grunniens with 3 samples.

Results

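The cells described here are keratinocytes rich in keratins 1 and 10 and poor in keratin 77, from single-cell libraries of hair follicles taken from scapular skin of Tianzhu white yak. They were chosen by the counts themselves. In each library, a cell with at least 200 detected genes was a member when *KRT1* and *KRT10* together gave at least 1.5% of its unique molecular identifiers (UMIs, each 1 captured RNA molecule) and *KRT77* gave fewer than 3 UMIs. Of 38551 cells kept, 5888 were members: 1761 of 11987 in anagen (the growth phase of the hair follicle), 1640 of 12062 in catagen (regression) and 2487 of 14502 in telogen (rest). Every library was made from the skin of healthy yaks of about 2 years, without treatment, 1 library per stage, by the 10x Genomics 3' method. Skin strips were treated with dispase, hair follicles were pulled out singly, and trypsin then freed the cells from the hair shaft. Whether a member came from the follicle or from epidermis that stayed attached to it cannot be told apart. The anagen and catagen skin came from 3 yaks, and which animal gave which library is not given in the sources used here, so stage, animal, library and software version cannot be told apart, and no value has a spread between animals. The catagen library is called so by its title and stage label, whereas its deposited protocol text names anagen. Because the members were selected on measured counts and no stage has a second library, everything below is a description without a test, and the intervals are 95% intervals that cover counting error only.

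*KRT1* and *KRT10* encode the keratin pair that a keratinocyte makes once it has left the basal layer, where *KRT5* and *KRT14* form the main pair. Cells then move outward through the spinous and granular layers, strengthen their desmosomes, make barrier lipids and end as dead cornified cells. *KRT77* encodes a further type II keratin of suprabasal cells. In RefSeq's annotation of the yak assembly Bosgru_T2T1.0 its gene lies next to *KRT1*, which lies next to *KRT2*, a keratin of the upper epidermis. The deposited files give gene identifiers without coordinates: ENSBGRG00000001328 for *KRT1*, ENSBGRG00000016347 for *KRT10* and ENSBGRG00000001344 for *KRT77*.

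Members made up 14.7% of kept cells in anagen (exact Clopper-Pearson interval 14.1 to 15.3), 13.6% in catagen (13.0 to 14.2) and 17.1% in telogen (16.5 to 17.8). The telogen share was 2.46 percentage points above anagen (Newcombe interval 1.57 to 3.34) and 3.55 above catagen (2.68 to 4.42). The catagen share was 1.09 points below anagen (−1.98 to −0.21), and this order turned with the limits: at a *KRT1* and *KRT10* share of at least 3% it was 5.78% in anagen and 7.59% in catagen, and in cells with at least 1000 genes 16.4% and 16.7%. Members were deeper than the cells around them, with a median of 7162, 4617 and 7588 UMIs in anagen, catagen and telogen, against 4965, 3199 and 5245 in the remaining cells. The remaining cells are all other kept cells of the library, including those rich in *KRT77*. Few barcodes recurred between libraries (43, 40 and 49 in the 3 pairs), and between 1 and 2 per pair belonged to members of both.

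The genes of the rule are described only, since the rule fixes their levels. The keratin pair took a median of 2.67% of a member's UMIs in anagen, 3.26% in catagen and 3.08% in telogen, against 0.0700%, 0.0258% and 0.101% in the remaining cells, and reached 11.2%, 10.5% and 20.8% in the richest member. *KRT1* stood at 17703 CPM (UMIs per 1000000 UMIs of the summed members) in anagen, 18519 in catagen and 24089 in telogen, and *KRT10* at 13309, 16906 and 16624 CPM. *KRT77* was at 0 UMIs in 88.5%, 85.4% and 91.7% of members. At the keratin limit, 436, 262 and 545 members held 1.5 to 2% while 633, 335 and 989 cells just outside it held 1 to 1.5%. At the other limit, 73, 89 and 57 members had 2 *KRT77* UMIs while 49, 58 and 26 cells had 3. Of suprabasal markers that the rule did not use, *KRTDAP*, which encodes a secreted protein of differentiating keratinocytes, and *DSG1* and *DSC1*, which encode desmosomal cadherins of the suprabasal layers, were above the remaining cells in 3 of 3 libraries. In catagen the label had less behind it: *AQP3* and *SBSN*, both of the suprabasal list, were near the level of the remaining cells there, with values below.

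Members also lay beside each other when the 3 genes of the rule were left out. Among the 20 nearest neighbours of a member, in 30 components of 2000 variable genes, 71.2% were members in anagen, 73.1% in catagen and 68.5% in telogen. Of members with 3% or more of the keratin pair, 90.2%, 90.7% and 90.2% had mostly members around them. Of members between 1.5 and 3% the shares were 65.4%, 66.4% and 49.1%, and of the cells just below the limit, at 1 to 1.5%, they were 24.3%, 32.3% and 18.1%. These shares stepped down across the limit without a gap in each library. Of the neighbours of *KRT77*-high cells (at least 1.5% of the pair and 3 or more *KRT77* UMIs), 60.3% were members in telogen, where such cells numbered 77, against 39.3% in anagen and 30.9% in catagen.

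Against the remaining cells, the genes highest in members included those of desmosomes, barrier lipids and defence. Levels are CPM of summed UMIs and are compared between cells, not between genes, since they are not set per length. A gene entered when it had at least 10 CPM in either group, counts under 3 were set to 3, and 2-fold was the limit for a call. A gene under 10 CPM in 1 group entered only through the other and could be called in 1 direction only, so for gene lists the counts with at least 10 CPM in both groups are given as well where they differ in a way that bears on the count. In anagen 208 genes (3.63% of 5732) were at least 2-fold higher and 588 (10.3%) at least 2-fold lower, in catagen 111 (1.85% of 6010) and 722 (12%), and in telogen 121 (2.25% of 5379) and 414 (7.7%). The median over all genes was below 0, at −0.16, −0.24 and −0.07 on the log2 scale. With median-of-ratios scaling the split was 287 higher and 506 lower in anagen and 208 and 575 in catagen. The remaining cells include the *KRT77*-high cells, and without those 183 genes were higher and 775 lower in catagen, 261 and 621 in anagen and 131 and 421 in telogen. Across all 3 libraries 46 genes were called higher and 291 lower, of 4986 genes compared in each.

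*KRTDAP* stood at 9510 CPM in anagen members, 4787 in catagen and 9643 in telogen, against 2261, 1507 and 2966 in the remaining cells. Its log2 ratio was 2.07 (2.06 to 2.08), 1.67 (1.65 to 1.69) and 1.70 (1.69 to 1.71), and its level in catagen members was the lowest of the 3. *DSC1*, for desmocollin 1, was at 174.5, 349.1 and 222.4 CPM against 46.2, 98.1 and 42.7, with log2 ratios of 1.92, 1.83 and 2.38. *DSG1*, its partner cadherin, was at 825.3, 1335 and 1084 CPM against 333.0, 656.6 and 430.8. Catagen members were the highest for both cadherins, and so were the remaining cells of catagen. *CERS3*, the ceramide synthase of the epidermal barrier, was at 120.3, 128.8 and 86.1 CPM against 35.1, 52.2 and 19.6. The share of members with a *CERS3* UMI was not told apart from background in catagen and telogen, as given below. Without the *KRT77*-high cells the remaining cells of catagen were at 985.7 CPM for *KRTDAP*, 47.9 for *DSC1* and 20.4 for *CERS3*, so that the ratios there were 4.86-fold, 7.30-fold and 6.30-fold.

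*SLC47A2*, which encodes a transporter of organic cations, was at 207.6 CPM in anagen members, 105.8 in catagen and 91.6 in telogen against 33.2, 21.7 and 11.7, and ranked first by the smallest of its 3 log2 ratios (2.29, in catagen, and 3.76 there without the *KRT77*-high cells). *FMO5*, for a flavin-containing monooxygenase, was at 294.4, 321.9 and 214.4 CPM against 52.9, 75.5 and 33.5. *SEMA3C*, for a secreted semaphorin, was at 122.1, 149.3 and 61.25 CPM against 18.5, 38.1 and 9.51. *F3*, which encodes tissue factor, and *EXPH5*, for a vesicle transport protein of keratinocytes, were both over 2-fold higher in 3 of 3 libraries, *F3* at 4569, 3099 and 2231 CPM. The other genes by this rule were *S100A12*, *AREG*, *COBL* and *CHP2*, with their smallest log2 ratios at 1.77, 1.25, 1.26 and 1.24. All 12 were also above the remaining cells in the *KRT77*-high cells, except *CHP2* in telogen.

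**Figure D1:**
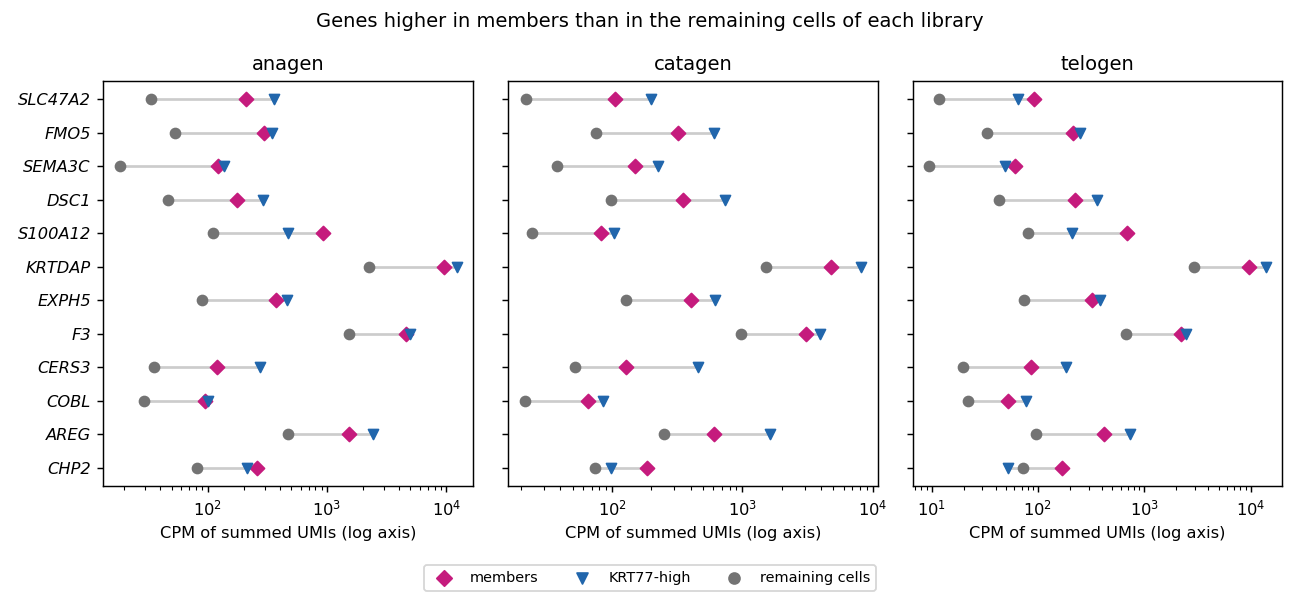
Level of the 12 genes with the highest ratio of members to remaining cells, as CPM on a log axis, in 1 panel per library, with diamonds for members, triangles for *KRT77*-high cells and circles for remaining cells. Members stand to the right of the remaining cells for each gene in each panel, and the *KRT77*-high cells are further right for *DSC1*, *CERS3*, *KRTDAP* and *AREG* and left of members for *CHP2*.

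The suprabasal list had 11 of 18 genes with a row, and 5 of 8 tested were at least 2-fold higher in anagen members, 2 of 8 in catagen and 3 of 8 in telogen, and 0, 1 and 0 were lower, with medians of 1.25, 0.47 and 0.94 against −0.16, −0.24 and −0.07 over all genes. With 10 CPM in both groups 5 of 8, 2 of 7 and 2 of 7 were higher and 0 lower. *FABP5*, for a fatty acid binding protein, was at 881.3, 598.7 and 1539 CPM against 324.0, 285.5 and 552.5. *AQP3*, the glycerol and water channel, was at 5178 CPM in anagen members, 477.5 in catagen and 2031 in telogen against 1543, 523.0 and 1211, so that catagen members were slightly below the cells around them. *GJB2*, for connexin 26, was the gene lower in catagen, at 13.5, 2.97 and 7.14 CPM against 12.7, 10.6 and 9.95, and it passed the minimum of 10 CPM there only through the remaining cells. *SBSN*, for suprabasin, was at 5544, 2670 and 2931 CPM against 2118, 2506 and 1580, and only in anagen was its ratio past 2-fold, but without the *KRT77*-high cells it was 2.04-fold in telogen and 1.37-fold in catagen. With those cells left out 5, 3 and 5 of the 8 genes of the list were higher. Among desmosome genes, 3 of 10 were higher and 2 lower in anagen, 2 and 2 in catagen and 2 and 1 in telogen. In catagen 2 of 9 were higher and 1 lower with 10 CPM in both groups. *DSG2*, the cadherin of simple and basal cells, was the one lower in all 3 libraries, at 44.8, 35.8 and 49.1 CPM against 112.2, 108.6 and 120.6.

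Genes of epidermal lipid synthesis were higher for 5 of 16, 1 of 15 and 3 of 15, with 1 lower in each library, and medians of 0.65, 0.27 and 0.61. *ABCA12*, the lipid transporter of lamellar granules, was at 45.8, 64.2 and 39.8 CPM against 16.1, 34.8 and 16.6, below 2-fold in catagen, where the ratio was 2.35-fold without the *KRT77*-high cells. Of lipid genes 6 of 16, 3 of 14 and 3 of 15 were then higher. Of late cornification genes 2 of 10, 0 of 9 and 0 of 8 were higher and 4, 7 and 3 lower, with medians of −0.09, −2.57 and −0.26. Of the tested genes 3, 6 and 1 were under 10 CPM in members and so could not be called higher. In anagen 1 was under 10 CPM in the remaining cells and could not be called lower. Of the 6, 3 and 7 with 10 CPM in both groups 1, 0 and 0 were higher and 1, 2 and 2 lower. The anagen count turned on the reference: without the *KRT77*-high cells 5 of 9 were higher and 3 lower there, with a median of 1.02, against 0 of 8 and 7 lower in catagen (−2.36) and 0 of 8 and 3 lower in telogen (−0.11). *ELOVL3*, a fatty acid elongase of sebaceous and hair follicle cells, among the lipid genes, was the gene lower in each library. In catagen and telogen *ELOVL3* was under 10 CPM in members and could not be called higher. With 10 CPM in both groups 1 of 14, 0 of 13 and 0 of 11 lipid genes were lower. Of transcription factors of differentiation, *GRHL3*, which encodes a grainyhead factor needed for the barrier, was higher in 3 of 3 libraries, at 99.7, 59.9 and 42.5 CPM against 36.0, 26.0 and 17.7, and in the list 2 of 14, 1 of 14 and 1 of 13 were higher and 2, 1 and 0 lower. In anagen 2 of 13 were higher and 1 lower with 10 CPM in both groups. In the Notch list 0 genes were higher, and *JAG2*, a ligand, and *LFNG*, which modifies the receptors, were lower in each library. In catagen *LFNG* was under 10 CPM in members and could not be called higher. Of the 7 Notch genes with 10 CPM in both groups there, 1 was lower. *JAG2* was at 40.5, 19.55 and 24.8 CPM in members against 180.2, 162.8 and 99.8.

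Alarmins of the S100 family, which keratinocytes release in defence, were higher in members than in the remaining cells, apart from *S100A7* in catagen, whose ratio there turned on the reference. *S100A7* was at 13580 CPM in anagen members and 10308 in telogen but 256.7 in catagen, against 2298 in the remaining cells of anagen, 914.1 in those of telogen and 178.6 in those of catagen. Its ratio was 5.91-fold in anagen and 11.3-fold in telogen but 1.44-fold in catagen. Most *S100A7* UMIs of the remaining cells of catagen lay in the *KRT77*-high cells (5941 of 7762), and without these the remaining cells were at 1365, 45.2 and 726.6 CPM and the ratios 9.95-fold, 5.68-fold and 14.2-fold. In summed UMIs the *KRT77*-high cells stood above members, at 23175 CPM in anagen, 1878 in catagen and 13881 in telogen. In telogen, however, fewer of them than of members had an *S100A7* UMI after thinning to equal depth, 41.6% against 64.4%. These shares were 95.2% against 86.8% in anagen and 55.4% against 16.5% in catagen. The telogen median per cell of the whole alarmin list was also lower in *KRT77*-high cells than in members. *S100A8* was at 343.5, 34.5 and 307.6 CPM against 63.6, 13.6 and 38.8, and *S100A12* at 932.5, 82.5 and 695.0 against 109.8, 24.1 and 81.2. In catagen the shares of members with a UMI of *S100A7*, *S100A8* or *S100A12* were not told apart from background (below). In the whole list of alarmins and barrier defence 5 of 9, 4 of 10 and 4 of 9 genes were higher and 2, 4 and 3 lower, with medians of 1.05, 0.48 and 0.89. Of the lower genes 1, 3 and 1 were under 10 CPM in members, and of the 8, 6 and 8 genes with 10 CPM in both groups 5, 3 and 4 were higher and 1, 1 and 2 lower. *CCL27*, a skin chemokine, and *IL1F10*, of the interleukin 1 family, were lower in 3 of 3 libraries. Among ligands of the epidermal growth factor receptor, *AREG*, for amphiregulin, was at 1519, 601.2 and 416.4 CPM against 474.6, 252.1 and 96.8. In the list of these ligands, their receptors and *ERRFI1*, which encodes an inhibitor of the receptor, 2 of 6, 1 of 6 and 2 of 5 genes were higher and 0, 1 and 0 lower, and without the *KRT77*-high cells 3, 1 and 2 were higher and 0 lower. With 10 CPM in members and all remaining cells, 2 of 6, 1 of 6 and 1 of 4 were higher and 0, 1 and 0 lower.

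Basal genes were lower in members. Of the basal layer list, which has 14 of 16 genes with a row, 10 of 11 tested genes were at least 2-fold lower in anagen, 10 of 12 in catagen and 8 of 11 in telogen, and 0 were higher. The medians were −1.56, −1.54 and −1.63. In each library 2 of the tested genes were under 10 CPM in members and could not be called higher. *COL17A1*, the hemidesmosome collagen, was at 85.2, 131.2 and 70.2 CPM against 240.2, 340.9 and 224.5. *KRT15*, of basal and bulge cells, was at 152.1, 414.4 and 85.6 CPM against 322.8, 727.1 and 332.3, under 2-fold in catagen. The basal keratin pair was nearest to the remaining cells in telogen. *KRT5* was at 307.5, 569.9 and 939.5 CPM against 931.5, 1610 and 1676, under 2-fold in telogen. *KRT14* was at 4417 CPM in anagen members and 5798 in catagen, against 11852 and 12850 in the remaining cells, but at 17515 in telogen members against 21009. The log2 ratio of *KRT14* was −1.42 in anagen, −1.15 in catagen and −0.26 in telogen.

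Genes of division and of the hair follicle lineages were lower as well. Of G2/M genes 11 of 12, 7 of 9 and 9 of 10 were lower and 0 higher, with medians of −2.46, −3.12 and −2.45. Many were under 10 CPM in members and could not be called higher, and of the 5, 5 and 4 with 10 CPM in both groups 4, 3 and 3 were lower. *TOP2A*, the topoisomerase of dividing cells, was at 27.0, 11.01 and 18.5 CPM against 164.9, 157.6 and 122.6, and *CENPF*, a kinetochore gene, at 55.0, 32.3 and 36.1 against 328.5, 312.1 and 198.3. Of S phase genes 11 of 14, 6 of 11 and 8 of 13 were lower and 0 higher, but of the 6, 5 and 4 with 10 CPM in both groups 3, 0 and 0 were lower. Of cell cycle inhibitors 0 of 6, 0 of 7 and 1 of 6 were higher and 1, 3 and 1 lower. Among the 3, 5 and 3 of them with 10 CPM in both groups 0 were higher and 0, 1 and 0 lower. The medians were −0.34, −0.48 and −0.26, with *CDKN1A* at 16.7, 18.3 and 11.6 CPM against 8.58, 15.97 and 4.39.

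Inner root sheath keratins were far below the remaining cells, with all tested genes of the list lower (5, 5 and 4, of which 4, 3 and 3 had 10 CPM in both groups) and medians of −3.39, −4.21 and −4.10. *KRT71* was at 59.6 CPM in anagen members, 48.6 in catagen and 22.9 in telogen, against 749.8, 791.4 and 435.0. *KRT25*, *KRT27* and *KRT28* had log2 ratios between −3.15 and −4.42. *KRT75*, of the companion layer, was at 20.5, 14.1 and 23.6 CPM against 220.4, 375.1 and 206.1, and *KRT85*, of the hair cortex, at 150.3, 24.99 and 32.1 against 1111, 518.7 and 359.4. The remaining genes by the rule were *TAGLN*, for the actin binding protein transgelin, *LGALS1*, for galectin 1, *CDH13*, for an atypical cadherin, and *LHX2*, for a follicle stem cell factor. Their largest log2 ratio was −2.23, that of *LHX2* in anagen. In the list of outer sheath and bulge genes 6 of 8, 9 of 10 and 5 of 6 were lower and 0, 0 and 1 higher, and of the 6, 4 and 5 with 10 CPM in both groups 4, 3 and 4 were lower.

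**Figure D2:**
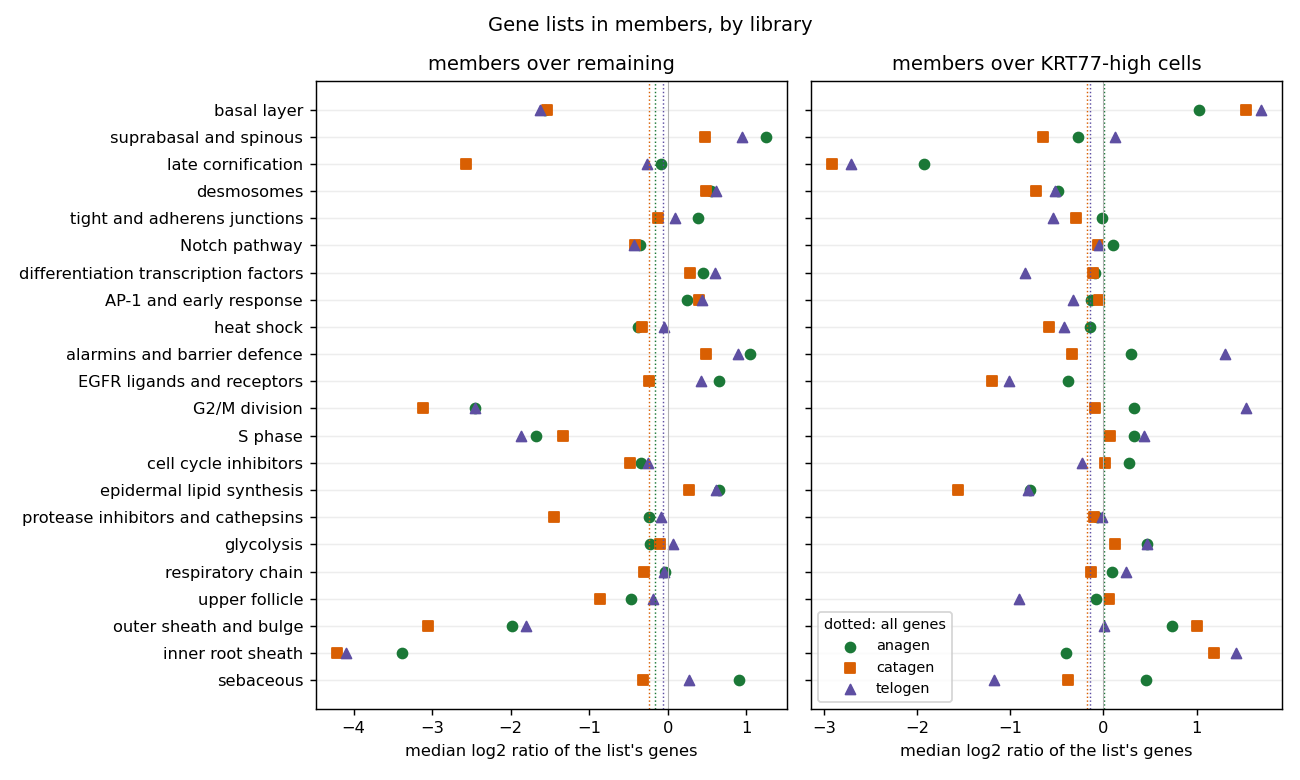
Median log2 ratio of each gene list with at least 3 tested genes in every library, for members over remaining cells (left) and members over *KRT77*-high cells (right), with circles for anagen, squares for catagen, triangles for telogen and dotted lines for the median of all genes. On the left the basal, division, inner root sheath and outer sheath lists lie below −1 in each library, and on the right the basal list lies above 1 and late cornification below −1.

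Within the members, the share of the keratin pair ordered other genes. Members were divided at 3% and 6%, giving 1068, 622 and 71 cells in anagen, 724, 799 and 117 in catagen and 1197, 916 and 374 in telogen, and the richest cells were also deeper, with medians of 8363, 4905 and 9720 UMIs against 6501.5, 4372.5 and 6528 in the lowest range. *KRT15* went from 180.3 to 118.3 and 76.97 CPM in anagen, from 627.6 to 279.8 and 49.3 in catagen and from 125.5 to 62.6 and 37.6 in telogen. *COL17A1* ran the same way, from 107.0 to 30.1, from 166.0 to 81.0 and from 95.3 to 21.6 CPM between the lowest and highest range. The share of members with a UMI of either gene was not told apart from background, as given below, and the ranges differ in depth. *DSC1* ran the opposite way, from 126.7 to 309.6 CPM in anagen, from 227.1 to 662.0 in catagen and from 139.1 to 422.5 in telogen. *KRT14* went down with the other basal genes in anagen (5611 to 2147 CPM) and catagen (8753 to 1398) but stood at 18254, 17316 and 16147 in the 3 ranges of telogen. Over all genes, 6.64%, 6.18% and 1.72% were at least 2-fold higher in the richest range than in the poorest and 4.12%, 6.39% and 3.58% lower, and of 4657 genes 12 were higher and 38 lower in all 3 libraries. Of the basal list 5 of 9, 8 of 10 and 8 of 10 were lower and 0 higher (5 of 9, 6 of 8 and 7 of 9 with 10 CPM in both ranges), with medians of −1.03, −2.40 and −1.58 against 0.13, 0.07 and −0.01 over all genes.

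**Figure D3:**
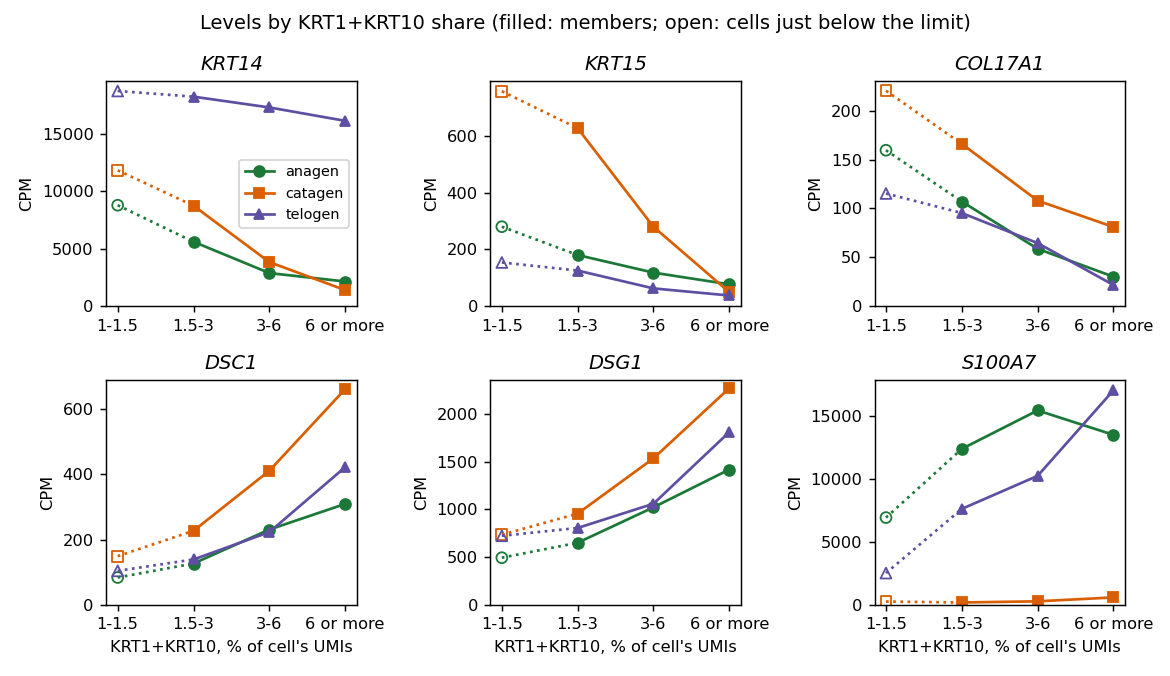
CPM of 6 genes in cells grouped by the percent of UMIs in *KRT1* and *KRT10*, with filled symbols and solid lines for members, open symbols for cells just below the limit, and 1 colour and symbol per library. *KRT15* and *COL17A1* decline and *DSC1* and *DSG1* climb with the keratin share in each library, whereas *KRT14* stays between 16147 and 18254 CPM in telogen members and *S100A7* stays low in catagen.

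The *KRT77*-high cells, which share the keratin limit, were fewer: 227 in anagen, 337 in catagen and 77 in telogen. They formed 11.4% of all cells over the keratin limit in anagen (10.1 to 12.9), 17.0% in catagen (15.4 to 18.8) and 3.003% in telogen (2.38 to 3.74). With *KRT77* at 0.05% or more of a cell's UMIs in place of 3 UMIs, they were 126 of 1988 cells in anagen (6.34%), 340 of 1977 in catagen (17.2%) and 33 of 2564 in telogen (1.29%). Their median depth was 11429, 8569 and 13153 UMIs, above that of members in each library, and a limit set in UMIs is reached more easily by a deeper cell. The part of depth in the differences was not tested beyond this limit set as a percent.

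Against these cells, basal genes were higher in members and several cornification genes lower, in each library. In anagen 123 genes (2.3% of 5337) were at least 2-fold higher in members and 245 (4.59%) lower, in catagen 153 (2.74% of 5588) and 455 (8.14%), and in telogen 283 (5.21% of 5432) and 496 (9.13%), with medians over all genes of 0.01, −0.18 and −0.15. With median-of-ratios scaling the split was 211 higher and 340 lower in catagen and 347 and 398 in telogen. With *KRT77* under 0.05% of UMIs in place of 3 UMIs it was 237 higher and 352 lower in anagen, with 86 of the 123 higher and 199 of the 245 lower genes kept, and 335 and 1108 in telogen, with 123 of the 283 higher and 377 of the 496 lower kept. Of the basal list 6 of 9, 8 of 10 and 7 of 9 were higher and 0 lower, with medians of 1.02, 1.53 and 1.69. Of these, 1, 2 and 0 genes were under 10 CPM in the *KRT77*-high cells and entered only through the members. *KRT15* was at 152.1, 414.4 and 85.6 CPM in members against 57.7, 72.7 and 26.5, and *COL17A1* at 85.2, 131.2 and 70.2 against 35.3, 33.5 and 18.8. The share of members with a UMI of either gene was not told apart from background (below), and the cells compared differ in depth. *KRT14* was at 2.08 times the level of the *KRT77*-high cells in anagen, 4.32 times in catagen and 5.08 times in telogen.

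The other genes higher in members by the rule were *SFRP1*, which encodes a secreted inhibitor of Wnt ligands, *S100A10*, *SLC39A6*, for a zinc importer, *CASP6*, for a caspase, *GSTM3*, for a glutathione transferase, and *IL1R2*, the decoy receptor of interleukin 1. *SFRP1* was at 124.6, 135.3 and 100.2 CPM in members against 40.4, 46.8 and 29.95, and *IL1R2* at 121.0, 130.4 and 100.8 against 57.7, 47.1 and 24.0. The share of thinned members with a UMI was 12.9%, 16.2% and 11.9% for *SFRP1* and 14.1%, 13.8% and 10% for *IL1R2*. These lay under the exact upper bounds of the cells with endothelial genes described below (24.2%, 26.5% and 21.1%, and 17.3%, 38.5% and 32.4%). Neither gene's share was told apart from background. In anagen the log2 ratios of *KRT15*, *COL17A1* and *IL1R2* were 0.91, 0.40 and 0.84, under 2-fold, when *KRT77* was limited to 0.05% of UMIs in place of 3 UMIs.

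Genes of the cornified layers were among those lower in members. Of the late cornification list 7 of 10, 7 of 9 and 11 of 11 were at least 2-fold lower and 0 higher, with medians of −1.92, −2.91 and −2.71. Of these, 3, 6 and 4 genes were under 10 CPM in members and entered only through the *KRT77*-high cells, so that they could not be called higher. Of the 7, 3 and 7 genes with at least 10 CPM in both groups, 4, 1 and 7 were lower. *CNFN*, for cornifelin, was at 5.60, 4.33 and 35.95 CPM in members against 107.5, 140.3 and 447.5. *SPINK5*, the inhibitor of epidermal kallikreins, was at 1257, 1654 and 1161 CPM against 4015, 7592 and 4909, and *TGM1*, the crosslinking transglutaminase, at 4.24, 2.60 and 4.715 against 31.9, 40.8 and 49.6. *SERPINA12* was at 2.16, 4.95 and 1.82 CPM against 100.1, 138.4 and 51.3. *CCHCR1*, *C5orf46*, *BPIFC*, *LYPD5*, *GSDMA*, for gasdermin A, and *DGAT2*, for a triglyceride synthase, completed the rule with log2 ratios at or below −2.07. Lipid genes followed in part: 6 of 17, 14 of 16 and 7 of 16 were lower and 0, 0 and 2 higher, and of the 15, 13 and 12 with 10 CPM in both groups 4, 11 and 5 were lower. *ELOVL4*, which makes very long fatty acids of barrier ceramides, was at 119.0, 75.6 and 93.8 CPM against 381.4, 512.3 and 448.4, and *ALOX12B*, the lipoxygenase of the ceramide barrier, at 0.790, 1.98 and 3.41 against 26.5, 53.4 and 53.9.

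Some genes separated the *KRT77*-high cells from members in 1 library more than in another, without a test of that difference. *S100A8* was 6.54-fold higher in telogen members than in telogen *KRT77*-high cells (307.6 against 47.1 CPM), but stood at 343.5 against 275.5 in anagen and 34.5 against 44.2 in catagen. *KLK7*, a protease that frees cornified cells, was at 850.6 CPM in telogen members against 5578, and at 59.8 against 103.3 in catagen. The telogen groups also differed in the upper follicle list, whose median per 10000 UMIs was 11.3 in members against 122.3. *KRT17*, the most abundant gene of that list, was at 5722.4 CPM in telogen members against 10693. In anagen and catagen *KRT17* was higher in members, at 3673.6 against 3427.8 and 1681.9 against 896.01. The part of this in the *KLK7* difference was not tested.

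Members were not uniform, and *KRT17*, a keratin of the follicle sheath and of activated cells, varied widely among them. Per 10000 UMIs of a member, *KRT17* had a median of 21.3 in anagen, 1.49 in catagen and 8.64 in telogen, and its 10th and 90th percentiles were 1.31 and 88.8, 0 and 46.4, and 0 and 178. In catagen the 10% of members with the most *KRT17* held 79.6% of its UMIs, and in telogen 64.9%. The members of each library were therefore ordered by *KRT17* per UMI, a choice made after its values were seen, and the 25% with the lowest and highest values were set side by side, without a test (440, 410 and 621 cells each). Depth was alike in both, with medians of 7235 and 7241 UMIs in anagen, 4203 and 4126 in catagen and 7968 and 8161 in telogen. After thinning to equal depth, 77.97%, 35.1% and 62.7% of all members had a *KRT17* UMI. The exact upper bounds of the cells with endothelial genes described below were 57.9%, 48.4% and 63.4%. In catagen and telogen the *KRT17* share was therefore not told apart from background.

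*KRT79* and *SOX9* were higher in the *KRT17*-rich members of each library. *KRT79*, a keratin of the follicle canal, was at 110.9, 309.8 and 705.9 CPM in them against 1.48, 4.93 and 11.5 in the *KRT17*-poor members, and *SOX9*, a factor of follicle keratinocytes, at 687.8, 443.8 and 570.6 against 78.2, 96.9 and 59.2. *CRYAB*, for a small heat shock protein, and *TIMP2*, for a protease inhibitor, were higher as well, at 561.0 and 264.2 CPM in telogen against 22.3 and 17.5. *KLK7* was at 479.1, 108.7 and 1982 CPM against 157.6, 13.1 and 199.1. The share of all thinned members with a *KRT79* UMI was 3.24%, 4.2% and 14.03%. These shares lay under the exact upper bounds of the cells with endothelial genes (9.03%, 26.5% and 14.2%) and were not told apart from background. The *KRT17*-poor members had more *SEMA3C* and *FMO5* in each library, and in telogen far more *S100A7*, at 16618 CPM against 1958, whereas it was at 14087 and 13600 in anagen and at 315.4 and 136.2 in catagen. *IL1R2* was at 153.7 CPM in *KRT17*-poor and 24.3 in *KRT17*-rich members of telogen, but at 107.1 and 94.2 in anagen and 121.6 and 80.2 in catagen. The keratin pair took 3.48%, 3.81% and 4.86% of UMIs in the *KRT17*-poor and 2.73%, 2.88% and 3.09% in the *KRT17*-rich members. With the *KRT17*-rich 25% left out of the members, none of the 9 counts of genes past 2-fold moved by over 1.5 times.

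**Figure D4:**
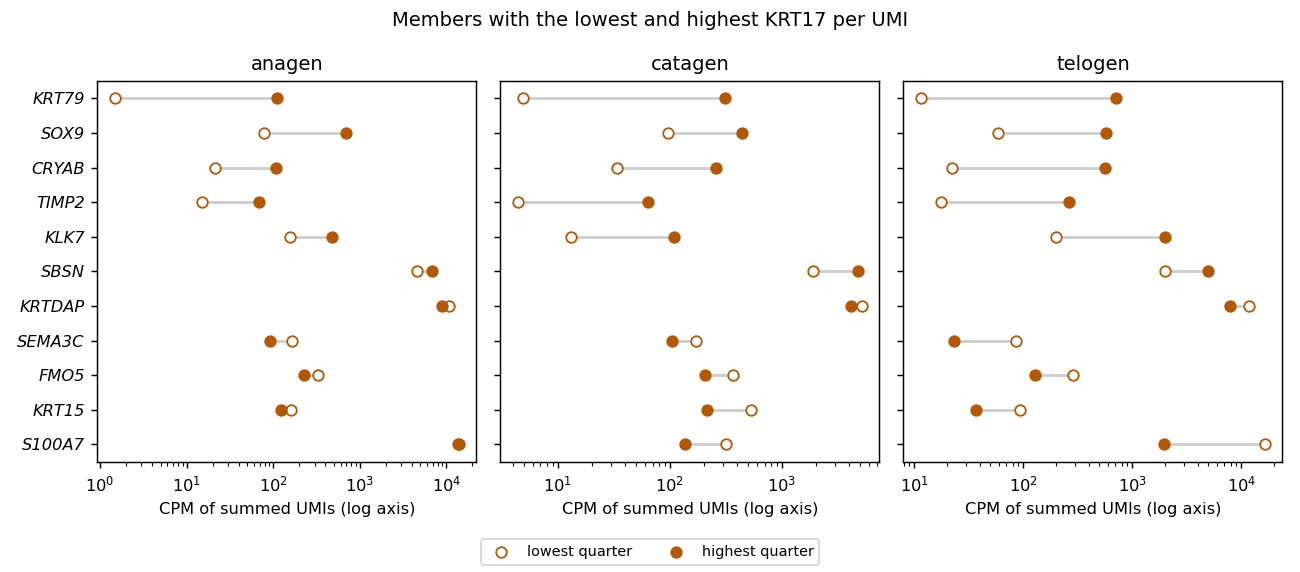
CPM of 11 genes on a log axis in the 25% of members with the lowest (open) and highest (filled) *KRT17* per UMI, with 1 panel per library. *KRT79*, *SOX9*, *CRYAB*, *TIMP2* and *KLK7* are higher in the *KRT17*-rich members of each library, and *S100A7* is far lower in those of telogen.

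Shares of cells with a UMI were taken after thinning each cell to 1500 UMIs, which left out 0, 330 and 327 members. Beside them stand cells with at least 3 of 8 endothelial genes (39, 12 and 24 cells with median depths of 4567, 2704.5 and 4713.5 UMIs before thinning, against 7162, 5361.5 and 8412.5 in the members), which should lack epidermal transcripts of their own. Cells over the keratin limit were left out of this group, so its background can be too low for genes that go with the keratin pair. *KRTDAP* was detected in 99.2%, 93.3% and 99.6% of members and in 38.5%, 16.7% and 50% of those cells, and *KRT14* in 73.6%, 70.9% and 92.0% against 64.1%, 58.3% and 70.8%. *KRT5* was found in 24.3%, 31.8% and 44.9% of members against 17.9%, 25% and 20.8%, *KRT15* in 15.2%, 25.2% and 7.41% against 7.69%, 16.7% and 16.7%, and *COL17A1* in 10.8%, 13.2% and 7.36% against 2.56%, 8.33% and 4.17%. Of these 4 basal genes only *KRT14* and *KRT5* in telogen exceeded the exact upper bounds of those cells (87.4% and 42.2%), so the other basal shares were not told apart from background. *DSC1* was found in 21.3%, 37.9% and 27.3% of members against 2.56%, 0% and 0%, where 0 of 12 and 0 of 24 cells have exact upper bounds of 26.5% and 14.2%. *CERS3* was found in 15.7%, 16.6% and 12.1% of members against 2.56%, 0% and 0%. Only in anagen was the *CERS3* share above the upper bound (13.5%), and in catagen and telogen it was not told apart from background. *S100A7* was found in 86.8% of anagen, 16.5% of catagen and 64.4% of telogen members, against 38.5%, 0% and 25%, and its catagen share lay under the bound of 26.5% and was not told apart from background. The catagen shares of *S100A8* (4.35%) and *S100A12* (9.54%), against 0% for both, lay under the same bound. *KRT85* was found in 16.8%, 3.05% and 2.82% of members against 20.5%, 8.33% and 4.17% (8 of 39, 1 of 12 and 1 of 24 cells), not above background at this depth, and *KRT71* in 8.57%, 5.80% and 2.73% against 5.13%, 0% and 4.17%, under the exact upper bounds of 17.3%, 26.5% and 21.1%.

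The members of the 3 stages were compared as 3 pairs of the same 3 libraries, so the pairs share cells and are given side by side. From anagen to catagen 289 genes (5.24% of 5515) were at least 2-fold higher and 463 (8.4%) lower, from anagen to telogen 210 (3.94% of 5335) and 473 (8.87%), and from catagen to telogen 454 (8.33% of 5451) and 518 (9.5%). The medians over all genes were −0.05, −0.10 and −0.08. One gene without a symbol, ENSBGRG00000010006, took 10.7%, 15.5% and 7.55% of the members' UMIs. Without it in the totals, a choice made after the data were seen, 390 genes were higher and 414 lower from anagen to catagen, and 355 and 758 from catagen to telogen. Median-of-ratios scaling turned the balance of the latter pair the other way, to 541 higher and 422 lower, and so did a minimum of 50 CPM, to 232 and 181.

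Alarmins differed widely between stages. *S100A7* in members was 52.9-fold lower in catagen than in anagen and 40.2-fold lower than in telogen. In the remaining cells the same ratios were 12.9-fold and 5.12-fold, and without the *KRT77*-high cells 30.2-fold and 16.1-fold. Among remaining cells of the 3 pairs 4.54% of genes were at least 2-fold higher and 2.98% lower, 3.07% and 8%, and 3.92% and 13.1%. Of the list, 6 of 8 genes were lower in catagen than in anagen (median −2.89) and 6 of 8 higher and 1, *CCL20*, lower in telogen than in catagen (median 2.40), while from anagen to telogen 1 of 8 was lower. With 10 CPM in both groups 5 of 7 were lower in the first pair, and 5 of 7 higher and 1 lower from catagen to telogen. With the same minimum the first pair had 5 of 8 lower in the remaining cells and 6 of 7 in the *KRT77*-high cells, and 0 higher. From catagen to telogen 4 of 8 were higher and 0 lower in the remaining cells. *SPINK7*, a protease inhibitor, was at 110.9 CPM in anagen members, 1.48 in catagen and 16.2 in telogen. *SELENBP1*, for a selenium binding protein, was at 634.2, 13.0 and 94.9 CPM, and *STRA6*, the retinol transporter, at 59.8, 0.990 and 18.4. *ELF5*, an epithelial transcription factor, had 1594 UMIs in anagen members (114.5 CPM), 1 UMI in catagen members and 388 in telogen members (18.1 CPM), which puts its catagen over anagen log2 ratio between −15.16 and −7.37. In the remaining cells *ELF5* was at 21.7, 7.48 and 9.33 CPM.

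Most tested late cornification genes of members were lower in catagen too. Of the list, 6 of 7 were lower in catagen than in anagen (median −2.18) and 6 of 7 higher in telogen than in catagen (median 3.05), and 4 of each 7 entered only through the anagen or the telogen members, whereas the remaining cells had 4 of 11 higher and 2 lower in the first pair and 3 of 11 higher and 2 lower in the other. With 10 CPM in both groups, 2 of 3 were lower and then 2 of 3 higher in members, and 2 of 7 and 1 of 6 higher and 0 lower in the remaining cells. Among *KRT77*-high cells 10.4% of all genes were at least 2-fold higher and 7.27% lower from anagen to catagen, 8.68% and 9.79% from anagen to telogen, and 9.04% and 13.5% from catagen to telogen. In them 6 of 12 genes of the list were lower and 2 higher in the first pair, and 6 of 12 higher and 3 lower from catagen to telogen, and with 10 CPM in both groups 3 of 7 lower and 0 higher, and 3 of 8 higher and 2 lower. The summed level of the list in members was 1773, 1763 and 2243 CPM, led by *SPINK5*, which was highest in catagen at 1654 CPM. *KLK5*, the kallikrein that activates *KLK7*, was at 59.3, 3.22 and 63.1 CPM, and *KLK7* at 262.4, 59.8 and 850.6. *KRT2* was at 5.96 and 6.43 CPM in anagen and catagen members but 101.03 in telogen members, against 4.38, 8.79 and 7.46 in the remaining cells and 0.318, 0.695 and 2.25 in those without the *KRT77*-high cells. After thinning, 0.738%, 0.687% and 5.23% of members had a *KRT2* UMI, against 7.93%, 7.23% and 11.7% of *KRT77*-high cells. In telogen members *KRT2* was at 22.1, 47.6 and 403.9 CPM in the 3 ranges of the keratin pair. *KRT79* was at 31.5, 91.5 and 221.7 CPM. In telogen 10% of members held 99.03% of the *KRT2* UMIs and 87.05% of those of *KRT79*. *S100A4*, *EGLN3*, an oxygen sensing hydroxylase, *DUOX1*, an oxidase of epithelia, and *IGFBP6*, a binding protein of insulin-like growth factors, were also high in telogen members, *IGFBP6* at 17.3, 1.73 and 70.7 CPM. It was higher in the remaining cells of each library, at 56.2, 10.7 and 183.7.

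Early response genes, which dissociation of tissue is known to induce, ran the other way. Of the list 6 of 19 were higher and 2 lower in catagen than in anagen members (median 0.81), 7 of 17 were lower in telogen than in anagen (−0.86) and 13 of 19 lower in telogen than in catagen (−1.18), with 0 higher in both. The remaining cells gave 4 higher and 1 lower of 18, 9 lower of 17 and 13 lower of 18. With 10 CPM in both groups members had 5 higher and 2 lower of 17, 7 lower of 17 and 11 lower of 17. The remaining cells then had 4 higher and 1 lower of 17, 8 lower of 16 and 11 lower of 16. *FOS* was at 876.7, 2272 and 1118 CPM in members, *JUN* at 2967, 4511 and 1518, and *NR4A1*, a nuclear receptor of the early response, at 76.4, 138.3 and 12.9. *NR4A2* and *MAFF* were among the 5 lowest in telogen against catagen, with *CCN2*, a matrix protein gene, and *SNCB*, for a synuclein, and *BTG2* was among the 5 highest in catagen against anagen. What part the handling of each tissue had in these levels was not tested.

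Ligands of the epidermal growth factor receptor were among the genes highest in anagen members. *AREG* was at 1519, 601.2 and 416.4 CPM and *HBEGF*, another ligand, at 52.8, 20.04 and 10.7. In the list of ligands, receptors and *ERRFI1* 5 of 6 genes were lower in catagen and 4 of 6 in telogen than in anagen, and 0 higher. In the remaining cells 1 of 6 and 4 of 6 were lower and 0 higher, and in the *KRT77*-high cells 3 of 7 and 4 of 7 were lower and 1 and 0 higher. With 10 CPM in both groups 5 of 6 and 3 of 5 were lower in members and 1 of 6 and 2 of 4 in the remaining cells. In the *KRT77*-high cells 2 of 6 and 4 of 6 were then lower and 1 and 0 higher. Of lipid genes 4 of 15 were lower in catagen and 6 of 15 in telogen than in anagen, or 2 of 13 and 4 of 13 with 10 CPM in both groups, against 4 of 16 and 5 of 15 in the remaining cells, or 3 of 14 and 4 of 13 with 10 CPM in both groups. *CLDN4*, a tight junction gene, was at 2663, 720.0 and 267.7 CPM, and *ITPKC*, an inositol kinase gene, at 884.7, 149.1 and 59.4. *PLAT*, the tissue plasminogen activator gene, was at 91.5, 11.5 and 9.29 CPM. The remaining cells had *CLDN4* at 1476, 525.9 and 250.7, in the same order.

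Other genes were highest in catagen members. *CD74*, the invariant chain of class II antigen presentation, was at 25.4, 118.3 and 38.1 CPM in members and 56.3, 165.3 and 101.8 in the remaining cells. *KIF21A*, for a kinesin, was at 60.9, 248.7 and 89.2 CPM, *FGFBP1*, a carrier of fibroblast growth factors, at 26.1, 105.5 and 32.7, and *ACKR4*, a scavenging chemokine receptor gene, at 18.0, 73.6 and 40.2. Of basal genes 3 of 10 were higher in catagen than anagen (2 of 9 with 10 CPM in both groups) and 1 lower. In the remaining cells 4 of 11 with 10 CPM in both groups were higher and 0 lower. *KRT14* was 3.97-fold higher in telogen than in anagen members, against 1.77-fold in the remaining cells.

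**Figure D5:**
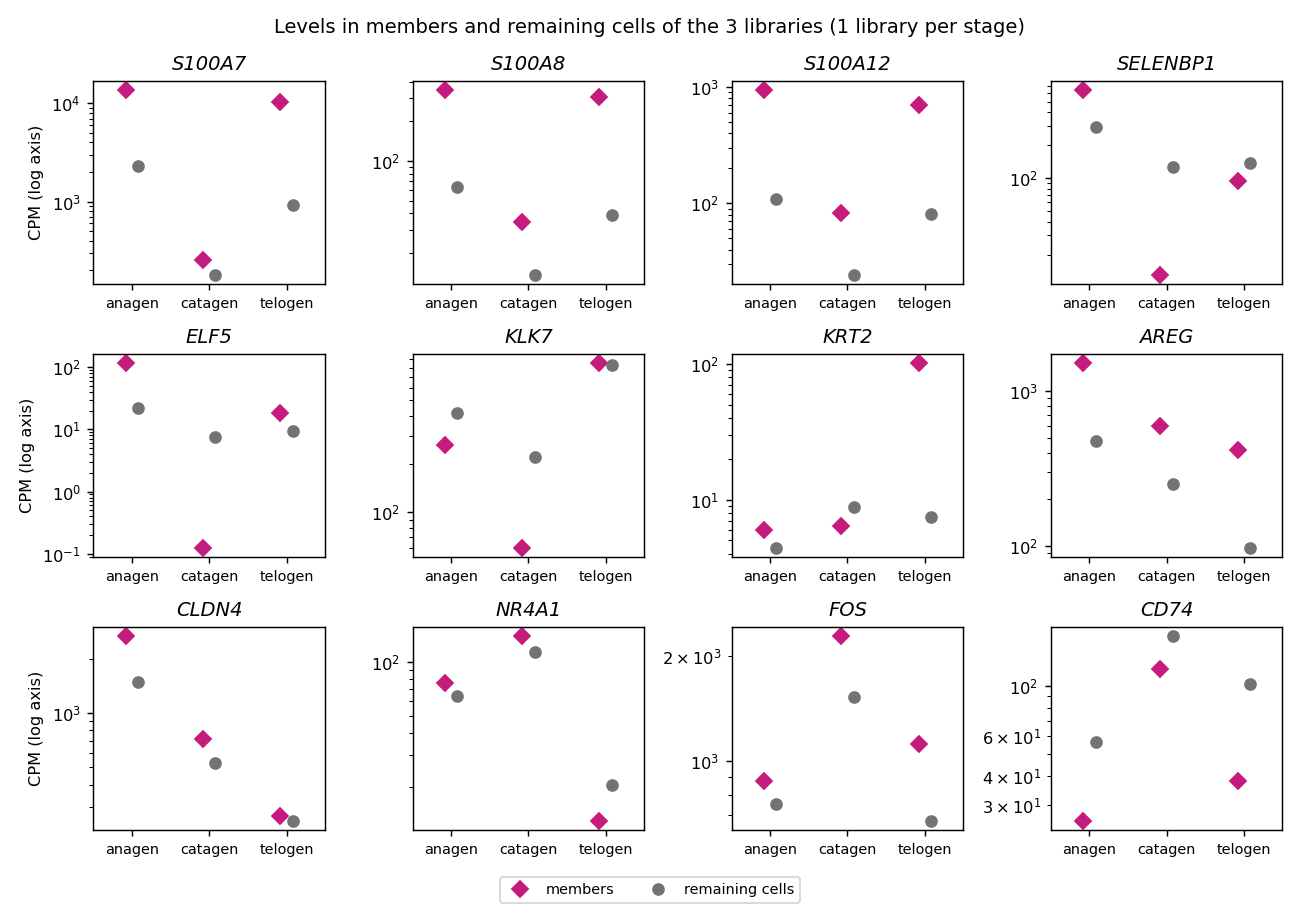
CPM of 12 genes on log axes in members (diamonds) and remaining cells (circles) of the 3 libraries, 1 library per stage. *S100A7*, *S100A8*, *S100A12*, *SELENBP1*, *ELF5* and *KLK7* are lowest in catagen members, *KRT2* is high in telogen members, *AREG* and *CLDN4* step down from anagen to telogen, and *FOS*, *NR4A1* and *CD74* are highest in catagen.

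Of markers of other cell types, the 8 endothelial genes summed to 3.30, 1.73 and 3.36 CPM, with *KDR* the most abundant and *CLDN5*, *ESAM* and *TIE1* at 0 in each library. Of mesenchymal genes, which summed to 39.3, 30.3 and 35.5 CPM against 330.2, 471.7 and 320.1 in the remaining cells, *TAGLN* was the most abundant, and *PDGFRA* was at 0 in each library. Immune genes summed to 47.8, 125.2 and 95.3 CPM against 63.9, 171.4 and 121.2, led by *CD74* in anagen and catagen and by *AIF1*, a macrophage gene, in telogen, with *LYZ* at 0 in each. *AIF1* was at 22.0, 6.06 and 56.8 CPM in members against 6.23, 4.67 and 17.1, over 2-fold higher in anagen and telogen. The immune sum was highest in catagen members, as *CD74* was, and *CD74* had a UMI in 11.99% of thinned catagen members against 75% of the 12 cells with endothelial genes, which express it. The part of immune or other cells in the *CD74* difference was not tested. Melanocyte genes summed to 7.26, 9.65 and 7.003 CPM, with *MLANA* at 0 in each library. Inner root sheath genes summed to 227.4, 149.3 and 71.8 CPM against 2354, 2714 and 1218, and hair cortex genes to 168.8, 31.5 and 36.6 against 1217, 611.8 and 397.4. *KRT17* gave most of the upper follicle list, which summed to 4070, 2063 and 6281 CPM in members against 6108, 4859 and 7208. Sebaceous genes summed to 86.2, 74.2 and 128.1 CPM against 72.3, 92.4 and 111.2, led in members by *MGST1*, and sweat gland genes to 8.26, 4.33 and 7.47 against 60.0, 70.2 and 72.8.

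Respiratory chain and glycolysis genes had 0 called in either direction in each library, and heat shock genes 0, 0 and 0 higher and 0, 1 and 0 lower. Tight and adherens junction genes had 0 called, with medians of 0.39, −0.12 and 0.09. Without the *KRT77*-high cells in the reference 1, 1 and 0 of 7 were higher and 0 lower. Cathepsins and protease inhibitors had 0 higher and 1, 4 and 2 of 6 lower (0 of 5, 3 of 5 and 0 of 4 with 10 CPM in both groups), among them *CTSH*, for cathepsin H, in each library, with medians of −0.23, −1.45 and −0.08. Between stages, 3 of 6 respiratory chain genes were higher in telogen than in catagen members (median 1.03, with 8.33% of all genes higher), and 2 of 6 in the remaining cells (median 0.65).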

How the data were processed

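Hair follicles pulled from dispase-treated scapular skin and digested with trypsin gave 1 droplet library per stage (10x 3' v2, per the labels). The authors deposited filtered matrices of UMI counts, unnormalized; their headers name Cell Ranger 4.0.0 (anagen), 3.1.0 (catagen) and 6.0.2 (telogen), and the submitters' processing notes 2.1.1. The genome build was not given in the sources used here. Of 12000, 12124 and 14573 barcodes, 13, 62 and 71 with fewer than 200 genes were left out. Kept cells held 82816430, 51537357 and 103430933 UMIs in anagen, catagen and telogen, with medians of 5256, 3350 and 5583.5 per cell. No doublet caller was run.

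UMIs were summed per group and scaled to CPM (Python 3.11.15, numpy 2.4.6, scipy 1.17.1). Intervals are 95% exact binomial ones for log2 ratios and shares and Newcombe's for differences of shares. *KRT1*, *KRT10* and *KRT77* stayed out of all counts. Genes were named by their smallest or largest ratio over the 3 stages (at least 50 CPM, 12 each way against remaining and 8 against *KRT77*-high cells), as the 5 highest and lowest per stage pair, and from 30 gene lists, of whose 417 genes 305 had a row. List genes under 50 CPM in members, and those of the *KRT17* split, were chosen after their values were seen. Some genes that the rule names are not reported here. The members and lists were chosen with earlier results of these data known. Ratios were also computed on simulated data, whose outcome is not given here. Alternatives changed the limits of the rule, the cell and gene filters, scaling, weighting of cells, zero counts, the deepest cells and thinning. List counts over genes with 10 CPM in both groups, shares of *KRT77*-high cells at 0.05% of UMIs, and ratios of list genes against remaining cells without *KRT77*-high cells were added after seeing the data.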

Additional observations from a re-analysis of the deposited data

Results flagged for a closer look

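*SELENBP1*, for a selenium binding protein, stood on opposite sides of the remaining cells in 2 libraries: its log2 ratio of members to remaining cells was 1.11 in anagen (634.2 against 293.4 CPM) and −3.27 in catagen (12.99 against 125.3 CPM), with −0.52 in telogen. With 1 library per stage the difference was not tested. It was 1 of 8 genes at least 2-fold higher in one library and at least 2-fold lower in another, of which 4 have a symbol, beside 4986 genes compared in each library. The remaining cells in these ratios include the *KRT77*-high cells, and the *SELENBP1* ratio without those cells is not given here.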

How the results depend on the processing

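The share of members in anagen, catagen and telogen was 19.97%, 16.37% and 23.97% with the keratin pair at 1% or more, 5.78%, 7.59% and 8.90% at 3% or more, 16.4%, 16.7% and 20.3% in cells with 1000 or more genes, and 16.3%, 15.9% and 19.2% after thinning each cell to 1500 UMIs. With *KRT77* under 6 UMIs it was 15.8% in anagen and 14.7% in catagen, with *KRT77* under 2 UMIs 12.9% in catagen, and with *KRT77* under 0.05% of UMIs 15.5% in anagen. The main counts of genes past 2-fold were 796, 833 and 535 against remaining cells, 368, 608 and 779 against *KRT77*-high cells, and 752, 683 and 972 for catagen over anagen, telogen over anagen and telogen over catagen. With at least 50 CPM, which leaves fewer genes to test, they were 273, 233 and 163, then 140, 247 and 256, then 269, 288 and 413. With *KRT77* under 0.05% of UMIs the counts against *KRT77*-high cells were 589 in anagen and 1443 in telogen, and without the 5% of cells with the most UMIs 640 in anagen; the cause was not tested. The other 84 of 96 counts, of higher and lower genes together, stayed within 1.5 times. Higher genes alone moved further in some of these. The 123 genes higher than *KRT77*-high cells in anagen became 225 with members at 3% or more and 187 with the mean over cells. The 111 genes higher than remaining cells in catagen became 171 with the mean over cells. Of 1602 ratios of named genes under the alternatives, 4 went under 2-fold and none changed sign past it: *KRT15*, *COL17A1* and *IL1R2*, given above, and *GSTM3* in anagen at 3% or more (0.74). Of 611 list medians 12 moved. Thinning to 3000 UMIs or none moved 166 of 180 shares of cells with a UMI. No paired analysis was possible because each stage has 1 library.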
